A study of Mus musculus with 6 samples.

Results

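The 10 circadian clock genes examined here are Arntl, Clock, Per1, Per2, Per3, Cry1, Cry2, Nr1d1, Nr1d2 and Dbp. They were chosen by symbol, as the core activators and repressors of the clock and its output Dbp, from the 54393 genes of the table, and all 10 were found once. RNA sequencing measured them in the tibialis anterior, the muscle along the shin, of adult mice. The WT group holds 3 muscles, numbered 1, 3 and 4 and titled with the strain name C57. The Dock3 KO group holds 3 muscles, numbered 1, 2 and 3, of mice in which Dock3, a gene for an activator of the small GTPase Rac, was knocked out. The allele behind the knockout, its background strain, the sex of the mice and the time of day at which each muscle was taken are not given in the sources used here. Nothing in the labels says that the muscles of a group came from separate animals, so p-values measure the spread between these samples.

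The circadian clock is a feedback loop of transcription that runs in nearly every cell and keeps a period of about a day. Arntl (also called Bmal1) and Clock encode a pair of activators that bind E-box elements and switch on the Per and Cry genes, whose proteins return to the nucleus and inhibit the pair. Nr1d1 and Nr1d2 (REV-ERB alpha and beta), themselves E-box targets, repress Arntl by competing with ROR activators for a shared element, and Dbp encodes an output activator that binds D-box elements. Across the day the transcripts of Arntl and Npas2 therefore run opposite to those of Nr1d1, Dbp and the Per genes, and in skeletal muscle the clock is known to time genes of glucose and fat use.

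The RefSeq promoter table (GRCm38.p6) held 13 windows of 300 bases for 9 of the 10 clock genes (all but Per2), each from 250 bases before to 50 after an annotated start site. In all, 6 sequences of letters were searched on both strands, namely the E-box CACGTG and its variant CACGTT, the D-box TTATGTAA and its variant TTACGTAA, and the ROR element TAGGTCA and its variant TGGGTCA. The windows of Arntl, Per3, Cry1 and Per1 are shown because each carries a kind of clock element, among them the elements through which the proteins described here are known to act. Capitals mark the matches, and sequences run 5′ to 3′ on the strand of the gene.
Arntl: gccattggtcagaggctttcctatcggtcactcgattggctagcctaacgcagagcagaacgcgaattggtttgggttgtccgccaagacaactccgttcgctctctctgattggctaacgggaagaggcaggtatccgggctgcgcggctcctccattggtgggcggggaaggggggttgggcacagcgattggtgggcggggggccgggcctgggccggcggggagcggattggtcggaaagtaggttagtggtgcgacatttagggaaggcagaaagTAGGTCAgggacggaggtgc
Per3: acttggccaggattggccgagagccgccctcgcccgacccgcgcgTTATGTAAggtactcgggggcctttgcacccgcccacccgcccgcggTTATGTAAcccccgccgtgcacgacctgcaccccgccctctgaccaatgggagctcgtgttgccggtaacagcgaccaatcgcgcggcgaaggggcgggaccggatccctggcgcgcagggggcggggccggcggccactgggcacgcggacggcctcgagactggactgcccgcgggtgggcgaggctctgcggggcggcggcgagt
Cry1: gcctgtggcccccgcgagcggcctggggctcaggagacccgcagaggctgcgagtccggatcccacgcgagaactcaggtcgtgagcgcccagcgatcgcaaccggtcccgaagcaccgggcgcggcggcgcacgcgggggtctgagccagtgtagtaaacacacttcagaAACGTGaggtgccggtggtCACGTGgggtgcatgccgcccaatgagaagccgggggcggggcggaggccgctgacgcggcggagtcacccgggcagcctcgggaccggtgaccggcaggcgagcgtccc
Per1: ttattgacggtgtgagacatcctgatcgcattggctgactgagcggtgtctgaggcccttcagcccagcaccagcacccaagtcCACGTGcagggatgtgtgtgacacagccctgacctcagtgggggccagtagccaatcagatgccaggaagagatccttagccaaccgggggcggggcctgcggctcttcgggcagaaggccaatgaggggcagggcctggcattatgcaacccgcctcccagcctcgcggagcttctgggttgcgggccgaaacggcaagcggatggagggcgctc
The Arntl window lies at chr7:113207261-113207560 on the plus strand and has 1 ROR element at position 31, counted from the start site as position 1. The Per3 window, chr4:151044616-151044915 on the minus strand, has a D-box at each of positions -205 and -158, where negative positions lie before the start site. In the Cry1 window, chr10:85185005-85185304 on the minus strand, an E-box stands at position -60 and the reverse complement of its variant at position -79. The Per1 window, chr11:69098699-69098998 on the plus strand, has 1 E-box at position -166. None of the matches overlap each other.

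Of all 32851 promoter windows of this length in the table, 7.15% held CACGTG, 4.69% CACGTT, 0.938% TTATGTAA, 0.119% TTACGTAA, 2.61% TAGGTCA and 3.98% TGGGTCA. Among the 13 clock windows, CACGTG was found in 2 (Cry1 and Per1), CACGTT in 3 (Cry1, Cry2 and Nr1d1), TTATGTAA in 1 (Per3) and TAGGTCA in 1 (Arntl). The variants TTACGTAA and TGGGTCA were found in 0 of them. The windows of Clock, Nr1d2 and Dbp held no match, which says only that these letters are not within these 300 bases. Arntl and Per1 each have another window, at chr7:113207215-113207514 and chr11:69099902-69100201, and these held no match either. These matches describe sequence and were not tested as binding sites.

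The deposited normalized counts summed to between 23520200 and 33393900 per muscle. The most frequent low value of a muscle, shared by 561 to 919 genes and taken as about 1 read, was 0.775 to 0.886 in 4 muscles and 1.40 and 1.52 in Dock3 KO replicates 1 and 2. On that basis the smallest clock gene value, Per2 in Dock3 KO replicate 1, rests on about 51.2 reads. The genes Gm42418 and Lars2 together took 17.9% and 20.3% of the summed values in Dock3 KO replicates 1 and 2, against 3.00% to 3.64% in the other 4 muscles. Dock3 itself had normalized counts of 169, 161 and 118 across WT and of 22.4, 1.78 and 1.54 across Dock3 KO (limma log2 difference -4.76, adjusted p = 0.0140). All 8 markers of skeletal muscle fibres were present, and 0 of them passed the test (limma adjusted p from 0.511 to 0.998).

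No clock gene passed the test between the genotypes, yet the pattern over the muscles was not flat. Arntl, the activator, stood higher in all 3 Dock3 KO muscles than in any WT muscle, and Dbp and Per3 stood lower. One muscle, Dock3 KO replicate 1, lay far from the other 5, with Arntl at 403% and Per2 at 13.8% of the WT mean. The test was limma on log2(normalized count + 1) over 16031 genes with a mean of at least 10, with Benjamini-Hochberg adjustment over all of them. All 10 clock genes were among the genes tested, and 0 of 10 had an adjusted p under 0.05, where 1.03% of all genes tested did (0.443% higher and 0.586% lower in Dock3 KO). At an unadjusted p under 0.05 the count was 4 of 10 (Arntl and Clock higher, Per3 and Dbp lower in Dock3 KO), and 10.5% of all genes tested met that limit (4.82% higher and 5.70% lower). The median log2 difference of the 10 genes was -0.02, with 5 above 0 and 5 below, and that of all genes tested was -0.01, with 49.0% above 0.

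**Figure D1:**
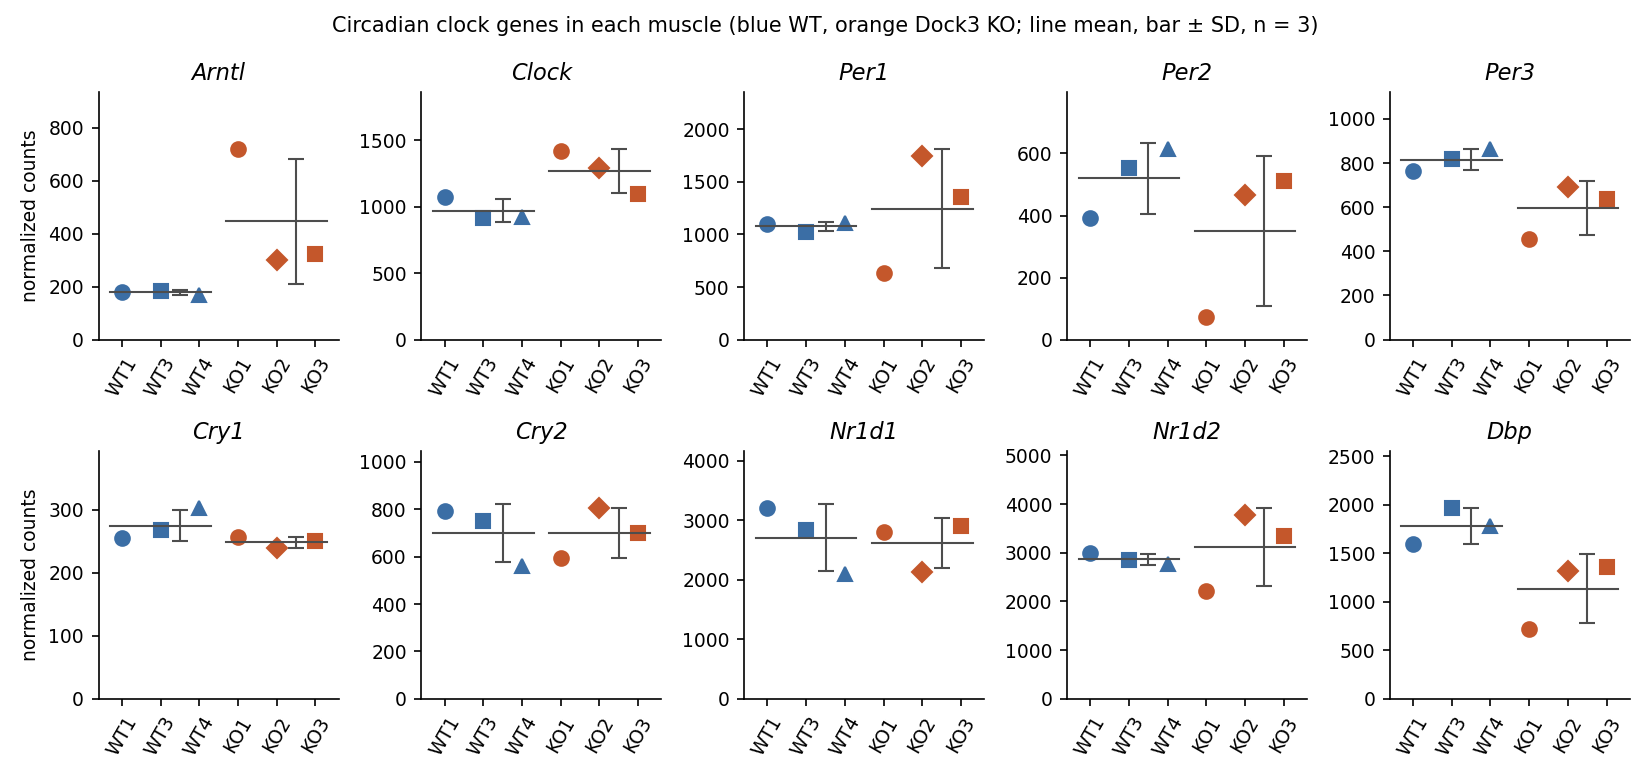
Normalized counts (y axis, from 0) of the 10 clock genes in each of the 6 muscles (x axis; WT1 is WT replicate 1, KO1 Dock3 KO replicate 1, and so on). Points are single muscles, lines are group means and bars ± SD (n = 3); Arntl is higher in every Dock3 KO muscle than in any WT muscle, and KO1 is lowest for Per1, Per2, Per3, Nr1d2 and Dbp.

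Among the activators, Arntl (ENSMUSG00000055116, chromosome 7, 113207465 to 113314126, plus strand) had a larger log2 difference than the other clock genes, though Per2 exceeded it in size without Dock3 KO replicate 3 (-1.47 against 1.38), and Per2 and Dbp did when rescaled to the same total (-1.25 and -0.98 against 0.93). Its normalized counts were 181, 185 and 169 for WT replicates 1, 3 and 4, and 720, 301 and 323 for Dock3 KO replicates 1, 2 and 3. The WT muscles lay close together and the groups did not overlap, and the first Dock3 KO muscle stood well above the others. WT averaged 178 ± 8.50 and Dock3 KO 448 ± 236 (SD, n = 3 each). The log2 difference of 1.20 (95% interval 0.54 to 1.87) missed the threshold (limma adjusted p = 0.127). In bulk muscle, a different number of cells of a type and a different amount of RNA per cell cannot be told apart. Without Dock3 KO replicate 1 the log2 difference was 0.80 (limma adjusted p = 0.102), and over all 18 alternatives it lay between 0.80 and 1.43. By exact permutation (two-sided) p was 0.1 for Arntl and for each other clock gene without overlap, and 3 against 3 muscles allow no smaller p.

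Clock (ENSMUSG00000029238, chromosome 5, 76209868 to 76304792, minus strand), the partner of Arntl, had normalized counts of 1068, 916 and 919 across WT and of 1420, 1287 and 1091 across Dock3 KO. The groups did not overlap, though the lowest Dock3 KO value stood just above the highest WT value. Its log2 difference was 0.38 (95% interval 0.06 to 0.70; limma adjusted p = 0.353). It was 0.11 when rescaled to the same total and 0.14 with log2 Gm42418 as a covariate. Clock overlaps 2 annotated genes on its own strand, Gm43658 and Ube2n-ps1.

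Of the Per genes, which encode the inhibitors that pair with the Cry proteins, each showed its own pattern. Per1 (ENSMUSG00000020893, chromosome 11, 69095217 to 69109960, plus strand), also known to respond to light, cAMP and glucocorticoid signals, had normalized counts of 1095, 1023 and 1109 across WT. Dock3 KO replicates 1, 2 and 3 had 635, 1747 and 1354. The first Dock3 KO muscle was below all WT muscles and the other two muscles above them, so the log2 difference of 0.09 (95% interval -0.58 to 0.77; limma adjusted p = 0.958) averages muscles that lie on both sides. Without Dock3 KO replicate 1 it was 0.52 (limma adjusted p = 0.238), and without Dock3 KO replicate 2 it was -0.21.

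Per2 (ENSMUSG00000055866, chromosome 1, 91415982 to 91459324, minus strand) had normalized counts of 392, 555 and 614 across WT and of 71.8, 468 and 511 across Dock3 KO. Only the first Dock3 KO muscle was outside the WT range, and the other two lay within it. The log2 difference was -0.98 (95% interval -2.35 to 0.39; limma adjusted p = 0.651), and it rested on that muscle, since without it the log2 difference was -0.06. The SD of Per2 among the Dock3 KO muscles was 1.59 on the log2 scale, against 0.34 among WT, and 98.6% of all genes tested had a smaller SD among the Dock3 KO muscles.

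Per3 (ENSMUSG00000028957, chromosome 4, 151003652 to 151044665, minus strand), whose promoter window holds the pair of D-boxes shown above, had normalized counts of 766, 818 and 863 across WT. Dock3 KO muscles had 457, 691 and 637. All Dock3 KO muscles lay below all WT muscles, and averaged 595 ± 123 against 816 ± 48.4 (SD, n = 3 each). The log2 difference was -0.47 (95% interval -0.86 to -0.09; limma adjusted p = 0.339), and -0.30 without Dock3 KO replicate 1. Per3 overlaps Camta1 on the same strand.

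The Cry genes, which encode repressors of the activator pair, overlapped between the groups. Cry1 (ENSMUSG00000020038, chromosome 10, 85131700 to 85185064, minus strand) had normalized counts of 255, 267 and 302 across WT and of 256, 239 and 250 across Dock3 KO. The Dock3 KO muscles lay close together, replicates 2 and 3 below all WT muscles and replicate 1 just above the lowest. Cry2 (ENSMUSG00000068742, chromosome 2, 92403646 to 92434043, minus strand) had normalized counts of 791, 750 and 559 across WT and of 595, 804 and 698 across Dock3 KO. The log2 differences were -0.14 (95% interval -0.49 to 0.21; limma adjusted p = 0.836) for Cry1 and 0.00 (-0.39 to 0.40; limma adjusted p = 0.998) for Cry2, whose sign turned in 7 of 18 alternatives.

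The REV-ERB repressors of Arntl had the highest clock transcript levels together with Dbp. Nr1d1 (ENSMUSG00000020889, chromosome 11, 98767932 to 98775333, minus strand) had normalized counts of 3200, 2839 and 2093 across WT and of 2811, 2139 and 2900 across Dock3 KO. Nr1d2 (ENSMUSG00000021775, chromosome 14, 18204054 to 18239127, minus strand) had normalized counts of 2985, 2848 and 2770 across WT and of 2224, 3770 and 3343 across Dock3 KO. Nr1d1 overlapped fully between the groups, while the Dock3 KO muscles of Nr1d2 lay on both sides of a narrow WT range. The log2 differences were -0.04 (95% interval -0.45 to 0.37; limma adjusted p = 0.970) for Nr1d1 and 0.08 (-0.33 to 0.49; limma adjusted p = 0.934) for Nr1d2. With the values rescaled to the same total per muscle the log2 difference of Nr1d2 was -0.19, and that of Nr1d1 turned to 0.13 with log2 Gm42418 as a covariate. Nr1d1 overlaps Thra on the other strand, and a processed pseudogene with 96.1% identity to Nr1d2 was listed at a mean of 11.01 normalized counts.

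Dbp (ENSMUSG00000059824, chromosome 7, 45705088 to 45710203, plus strand), which encodes the D-box activator, had normalized counts of 1597, 1964 and 1783 across WT and of 723, 1321 and 1359 across Dock3 KO. All 3 Dock3 KO muscles lay below all WT muscles, and the first was the lowest by far. WT averaged 1781 ± 184 and Dock3 KO 1134 ± 357 (SD, n = 3 each). The log2 difference was -0.70 (95% interval -1.21 to -0.20; limma adjusted p = 0.270), or -0.41 without Dock3 KO replicate 1. Sphk2 overlaps Dbp on the other strand, and whether counting used strand is not given in the sources used here. In total the groups did not overlap for 4 of the 10 clock genes (2 higher and 2 lower in Dock3 KO), and for 16.2% of all genes tested (7.60% higher and 8.65% lower).

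Per kilobase of annotated exon, WT levels ran from Nr1d1 at 881 ± 183 normalized counts down to Arntl at 23.7 ± 1.13 (SD, n = 3). The order was Nr1d1, Dbp (595 ± 61.4), Nr1d2 (530 ± 20.2), Per1 (191 ± 8.21), Cry2 (111 ± 19.6), Per2 (88.8 ± 19.7), Per3 (84.9 ± 5.04), Cry1 (82.2 ± 7.30), Clock (70.5 ± 6.33) and Arntl. Neighbours from Cry2 down to Clock overlapped in their WT ranges, as did Dbp and Nr1d2, so their order is not resolved. In Dock3 KO the mean level per kilobase was 59.5 ± 31.3 for Arntl, 59.8 ± 41.3 for Per2 and 61.9 ± 12.8 for Per3. These means lie close only through replicate 1, where Arntl was at its highest (95.6) and Per2 at its lowest (12.3), and in replicates 2 and 3 Arntl stayed below both. Dbp stood at 379 ± 119, below Nr1d2 at 575 ± 148 (SD, n = 3 each).

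To show the phase pattern of each muscle, every clock gene was set against its own WT mean on the log2 scale. Within WT the deviations ran from -0.38 (Per2 in replicate 1) to 0.26 (Per2 in replicate 4), and were widest for Per2, Nr1d1 and Cry2. In Dock3 KO replicate 1 the activator Arntl deviated by 2.01 and Clock by 0.56, while Per2 deviated by -2.81, Dbp by -1.30, Per3 by -0.83, Per1 by -0.76 and Nr1d2 by -0.37. In that muscle 2 genes were above and 5 below the WT range, and Cry1, Cry2 and Nr1d1 were within it.

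Dock3 KO replicates 2 and 3 shared another pattern, with Arntl at 0.75 and 0.85, Clock at 0.41 and 0.18, Per1 at 0.70 and 0.33 and Nr1d2 at 0.40 and 0.22. Dbp stood at -0.43 and -0.38, Per3 at -0.24 and -0.35, and Per2, at -0.13 and 0.00, within the WT range. Cry1 was at -0.20 and -0.13 and Cry2 at 0.21 and 0.01, while Nr1d1, at -0.32 and 0.12, differed in sign between these muscles. So Arntl and Clock were high and Dbp and Per3 low in all 3 Dock3 KO muscles, whereas Per1, Per2 and Nr1d2 were low in replicate 1 only. The root mean square log2 difference over the 10 genes was 0.22 between Dock3 KO replicates 2 and 3, 0.21 to 0.35 between WT muscles, and 0.34 to 0.49 between either of these Dock3 KO muscles and WT. Dock3 KO replicate 1 stood at 1.10 to 1.33 from every other muscle, although over all genes tested its distances, 0.76 to 0.92, were within the range of 0.65 to 0.96 seen between the other muscles.

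**Figure D2:**
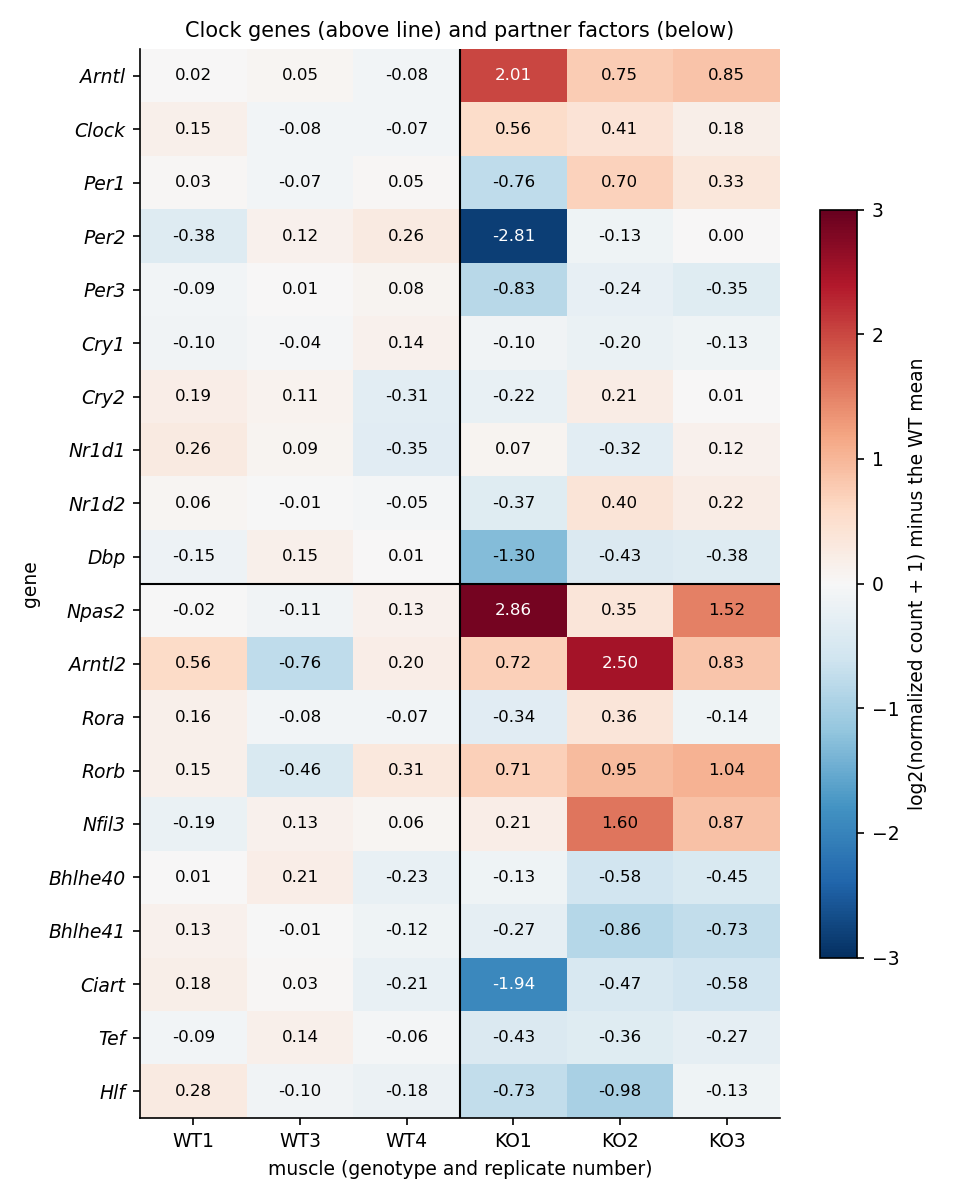
Each cell gives log2(normalized count + 1) of a gene (y axis) in a muscle (x axis, WT or Dock3 KO with its replicate number) minus the mean of the 3 WT muscles, in red above and blue below it. KO1 holds the extremes of the 10 clock genes, 2.01 for Arntl and -2.81 for Per2, while KO2 and KO3 resemble each other in the 10 clock genes above the line; 10 partner factors stand below it.

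Dock3 KO replicate 1 lay beyond all 5 other muscles by over 1.5-fold for 4 of the 10 clock genes (Arntl higher, Per1, Per2 and Dbp lower), a limit chosen after the values were seen. Over all genes tested that muscle did so for 4.32%. None of the other 5 muscles did so for any clock gene, with shares over all genes tested of 5.68%, 2.29% and 3.66% for WT replicates 1, 3 and 4 and 3.96% and 2.75% for Dock3 KO replicates 2 and 3. Gm42418 and Lars2 took a large share in this muscle (17.9%) and in Dock3 KO replicate 2 (20.3%). Markers of red blood cells were also high in Dock3 KO replicate 1, which lay beyond the other muscles by over 1.5-fold for 4 of 5 of them, with a summed level of 97653 normalized counts. The other Dock3 KO muscles had 36950 to 46254 and WT 28542 to 54916, and 0 of the 5 markers passed the test. Of 4 fibroblast markers, 2 passed (Col1a1 and Col3a1, higher in Dock3 KO), where 0.443% of all genes tested passed as higher. The log2 difference was above 0 for 3 of the 4 and below 0 for 1. The summed levels of the 4 were 29842 to 35372 in Dock3 KO against 26593 to 27651 in WT. Markers of adipocytes, Schwann cells, macrophages and endothelial cells had 0 calls. Dock3 itself was at 22.4 normalized counts in Dock3 KO replicate 1, against 1.78 and 1.54 in replicates 2 and 3. The part of the Dock3 level, of the Gm42418 and Lars2 share, or of blood or fibroblast content, in the clock values was not tested.

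If a muscle was scaled by 1 factor, a ratio of 2 genes within it hardly depends on that factor. Arntl was therefore used as the common denominator. Relative to the WT mean, the log2 ratio of Dbp to Arntl was -3.30, -1.18 and -1.24 in Dock3 KO replicates 1, 2 and 3 and within -0.18 to 0.09 in WT. Nr1d1 to Arntl was -1.93, -1.07 and -0.73 in Dock3 KO and between -0.27 and 0.24 in WT, and Per2 to Arntl was -4.82, -0.88 and -0.85 against -0.41 to 0.34. Every Dock3 KO muscle lay below every WT muscle in these ratios and in those of Per3 and Cry1 to Arntl, while Per1 to Arntl overlapped, at -0.05 in Dock3 KO replicate 2. Ratios without Arntl differed among themselves. Per2 to Per1 and Per2 to Dbp overlapped between the groups, with Per2 to Dbp at -1.52, 0.30 and 0.39 in Dock3 KO replicates 1, 2 and 3, while Dbp to Nfil3 was lower in every Dock3 KO muscle (-1.50, -2.03 and -1.26). All ratios to Arntl share its value, so they are not separate measurements, and they are given with no test. Arntl alone already separated the groups, so its ratios can separate them for genes that overlapped by themselves, as Nr1d1 and Cry1 did.

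**Figure D3:**
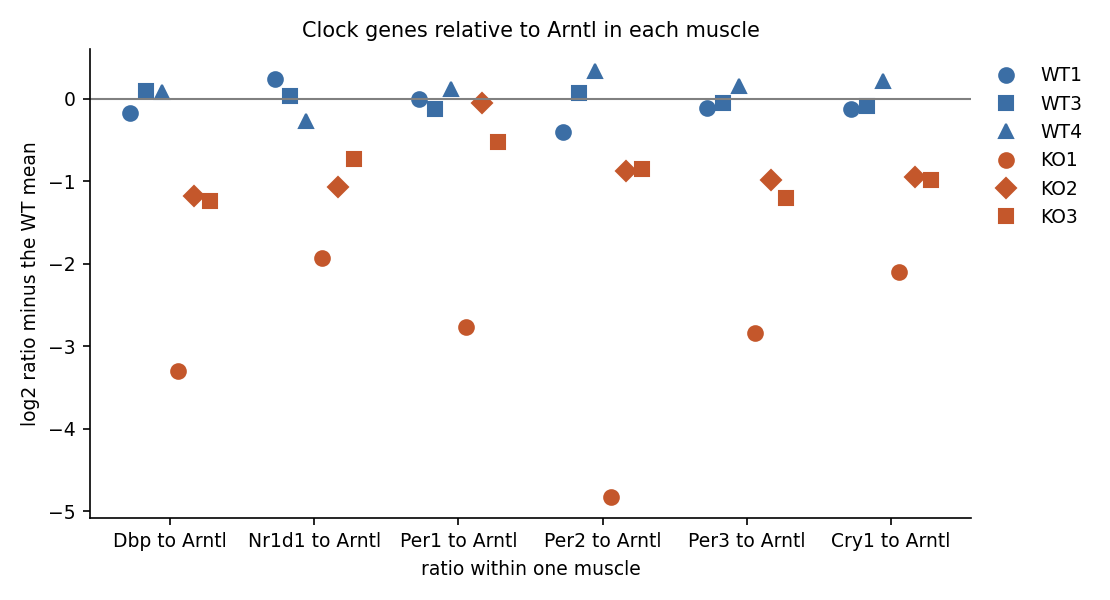
The y axis gives the log2 ratio of a clock gene to Arntl within a muscle, minus the mean of the 3 WT muscles, and the x axis the ratio; points are single muscles, blue WT and orange Dock3 KO, with 1 marker shape per replicate number. Except for Per1 to Arntl in KO2, Dock3 KO points lie below the WT points, and KO1 is lowest in each, down to -4.82 for Per2 to Arntl.

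Of 11 partner transcription factors of the clock, 0 passed the test over all genes (limma), 9 had an unadjusted p under 0.05 (4 higher and 5 lower in Dock3 KO, against 4.82% and 5.70% of all genes tested), and the median log2 difference was -0.04. Groups did not overlap for 7 of the 11 (4 higher and 3 lower), and for 16.2% of all genes tested (7.60% higher and 8.65% lower). The smallest adjusted p was that of Rorb, an activator at ROR elements, with normalized counts of 11227, 7382 and 12506 across WT and of 16600, 19583 and 20847 across Dock3 KO (log2 difference 0.90, limma adjusted p = 0.0816). Bhlhe41, an E-box repressor, had normalized counts of 2037, 1851 and 1716 across WT and of 1548, 1029 and 1123 across Dock3 KO (log2 difference -0.62, limma adjusted p = 0.169), and its adjusted p was 0.0368 without Dock3 KO replicate 1. Nfil3, which represses at D-boxes and so opposes Dbp, stood at 260, 324 and 310 in WT and 343, 903 and 544 in Dock3 KO (log2 difference 0.89, limma adjusted p = 0.287). Tef, a D-box activator related to Dbp, stood at 4474, 5247 and 4555 in WT and 3533, 3700 and 3936 in Dock3 KO (log2 difference -0.35, limma adjusted p = 0.311).

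Npas2 and Ciart were named after their values were seen. Npas2, which can replace Clock as the partner of Arntl, had normalized counts of 17.6, 16.4 and 19.5 across WT and of 136, 23.0 and 53.0 across Dock3 KO (log2 difference 1.58, limma adjusted p = 0.326). Ciart, an E-box target that inhibits the activator pair, had normalized counts of 191, 172 and 145 across WT and of 43.2, 121 and 112 across Dock3 KO (log2 difference -0.996, limma adjusted p = 0.342). The groups did not overlap for either gene, and in both the first Dock3 KO muscle was the extreme.

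**Figure D4:**
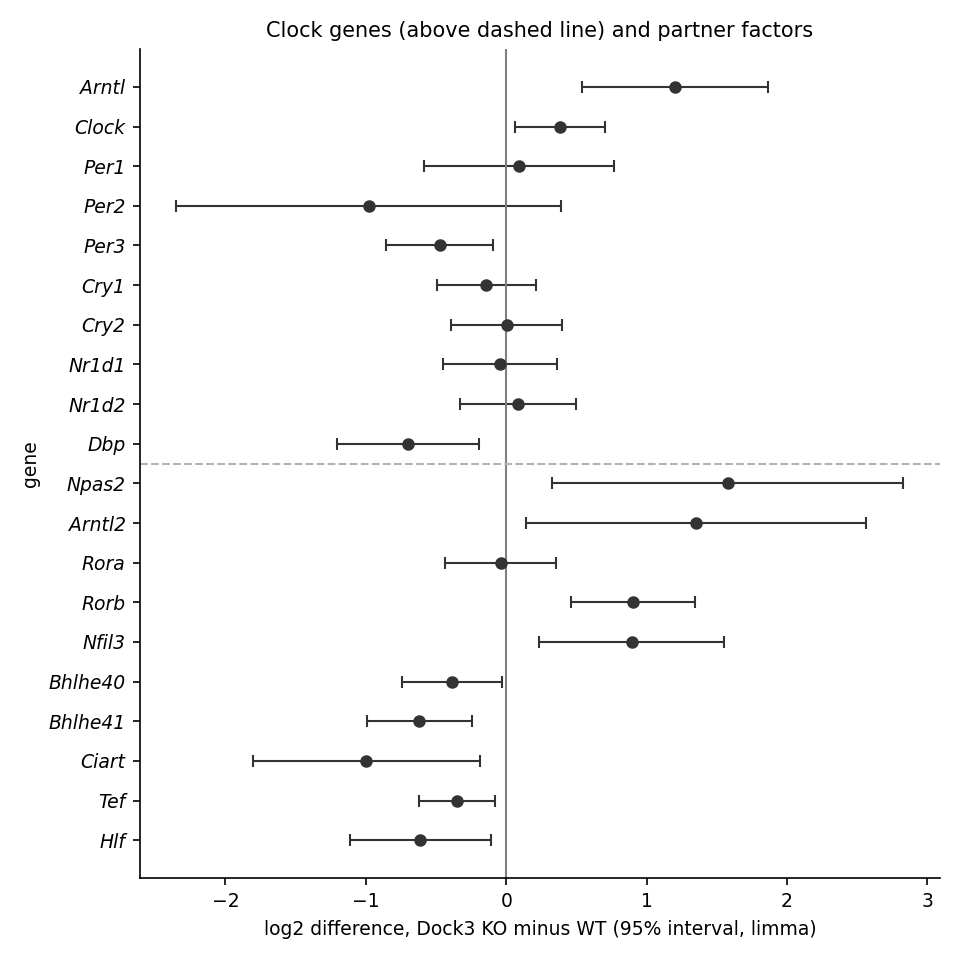
The x axis gives the log2 difference between Dock3 KO and WT on the log2(normalized count + 1) scale, with points for the estimate and bars for its 95% interval (limma, n = 3 each), and the y axis the 10 clock genes above the dashed line and 10 partner factors below. Intervals of Arntl, Clock, Per3 and Dbp lie to one side of 0 before adjustment, and that of Per2 is the widest among the clock genes.

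Of 22 genes for kinases, ubiquitin ligases and cofactors that act on clock proteins, 21 were tested, 0 passed the test and 0 had an unadjusted p under 0.05 (limma). Over all genes tested those shares were 1.03% and 10.5%. The groups did not overlap for 2 of the 21 (1 higher and 1 lower in Dock3 KO), and for 16.2% of all genes tested. The median log2 difference of the 21 genes was 0.05. Smallest in p were Timeless, Fbxw11, Nono and Fbxw7, with limma adjusted p-values from 0.509 to 0.617. Fbxl21, a ubiquitin ligase for Cry proteins, had a mean under 10 and was not tested.

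Of 18 known muscle outputs of the clock, 1 passed the test, as did 1.03% of all genes tested. At an unadjusted p under 0.05 the count was 7 (3 higher and 4 lower), and the groups did not overlap for 9 (4 higher and 5 lower), against 10.5% and 16.2% of all genes tested. The gene that passed was Pdk4, a kinase that inhibits pyruvate dehydrogenase. It rose from 1581, 908 and 1000 normalized counts in WT to 3125, 11092 and 4307 in Dock3 KO (log2 difference 2.23, limma adjusted p = 0.0301). Here Dock3 KO replicate 2, not replicate 1, was the highest. The call was lost without WT replicate 3, WT replicate 4 or Dock3 KO replicate 3, and with a Gm42418 covariate or another prior variance (without trend, or robust). The median log2 difference of the 18 genes was -0.12, with 7 above 0 and 11 below.

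Of 18 glucocorticoid- and fasting-responsive genes, 0 passed the test and 4 had an unadjusted p under 0.05 (limma; 10.5% of all genes tested), namely Sgk1 (log2 difference -0.52), Angptl4 (2.33), Errfi1 (0.49) and Tsc22d3 (0.47), with limma adjusted p-values from 0.194 to 0.442. The median log2 difference of the 18 genes was 0.16, with 14 above 0 and 4 below. Dock3 KO replicate 2 lay beyond the other 5 muscles by over 1.5-fold for 6 of these 18 genes, all higher, and for 3.96% of all genes tested. Sgk1, a kinase induced by glucocorticoids, went the other way, at 78.5% of the WT mean in that muscle and lower still in the other Dock3 KO muscles. The part of glucocorticoid or fasting signals in the clock values was not tested.

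Of 14 immediate early and cAMP-responsive genes, 3 passed the test, all higher in Dock3 KO (0.443% of all genes tested), and 13 had a log2 difference above 0, with a median of 1.14. Nr4a3, a nuclear receptor induced by exercise and adrenergic signals, rose from 132, 71.6 and 76.1 normalized counts to 575, 602 and 562 (log2 difference 2.68, limma adjusted p = 0.000413). Sik1, a kinase induced by cAMP, rose from 362, 405 and 440 to 798, 1139 and 719 (log2 difference 1.11, limma adjusted p = 0.0205). Btg2, an antiproliferative gene, rose from 206, 288 and 286 to 1209, 574 and 541 (log2 difference 1.49, limma adjusted p = 0.0465). Nr4a3 alone passed in each of the fits without 1 WT muscle and in that without Dock3 KO replicate 2, where Sik1 and Btg2 did not, and Btg2 also did not pass without Dock3 KO replicate 3. Both were also lost with a Gm42418 covariate, with a prior variance without trend and when rescaled to the same total. Sik1 was lost with the replicate block, which rests on replicates 1 and 3 alone. Btg2 was lost with a pseudocount of 0.1 and with a robust prior variance. With Dock3 KO replicates 1 and 2 left out, none of the 14 passed.

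Dock3 KO replicate 1 lay beyond the other muscles by over 1.5-fold for 6 of the 14 immediate early genes, all higher, and for 4.32% of all genes tested. Fos, a gene that cells switch on within minutes of a stimulus, was listed at 1307 normalized counts there, against 318 and 196 in the other Dock3 KO muscles and 96.1 to 129 in WT (named after its values were seen; limma adjusted p = 0.177). The muscle in which the clock genes stood apart was therefore also the one with the highest Fos. Whether the 2 are linked was not tested.

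Of 9 temperature-responsive genes, 0 passed the test and 2 had an unadjusted p under 0.05 (limma; 10.5% of all genes tested). Dnajb1 had normalized counts of 131, 115 and 157 across WT and of 162, 356 and 262 across Dock3 KO (log2 difference 0.89, limma adjusted p = 0.254). Hspa1b, a heat shock chaperone, had normalized counts of 102, 97.2 and 87.2 across WT and of 77.4, 403 and 386 across Dock3 KO, so replicates 2 and 3 stood apart from replicate 1 (log2 difference 1.26, limma adjusted p = 0.437). Without Dock3 KO replicate 1, Hspa1b and Hspa1a passed, with limma adjusted p-values of 0.00177 and 0.00913. Hspa1a and Hspa1b are known as near-identical copies, so reads may be split between them. Hspa1a (log2 difference 1.124) and Hsph1 (0.37) completed the 4 genes smallest in p.

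Lastly, the genes whose pattern over the 6 muscles was most like that of Arntl and of Dbp were found by the root mean square difference of log2 values, each centred on its own mean. Nearest to Arntl were Xlr3a (0.18), Btg2 (0.23) and Kazald1 (0.25), where the pattern of Arntl itself has a root mean square of 0.73. Npas2 was 189th nearest of the other genes tested, at 0.45. Among the 3 nearest to Dbp were AU041133 (0.11) and 9430073C21Rik (0.11), where the pattern of Dbp has 0.47. Per3 was 26th nearest to Dbp, at 0.18, the closest of the other clock genes. Xlr3a and AU041133 had low values, at most 37.1 and 41.5 normalized counts. The likeness is given as a description.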

How the data were processed

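RNA of 6 mouse tibialis anterior muscles (3 WT, 3 Dock3 KO) was sequenced in paired-end mode from stranded, RiboMinus-treated libraries, per the labels' protocols. The authors deposited 1 table of normalized counts, a signal per gene that is neither whole numbers nor of fixed sum, so count tests were not used. The submitters' processing notes name Trim Galore 0.4.5, Salmon 0.12.0, DESeq2 1.22.1, R 3.5.3 and GRCm38 (mm10), with no role. The normalization formula, annotation and use of strand are not given in the sources used here. If such values rest on 1 factor per sample, a fold change depends on it too. All 54393 identifiers were matched to GENCODE M21 (GRCm38), whose 1-based positions are given.

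Values were converted to log2(value + 1), so fold changes of low genes are understated. Genes with a mean of at least 10 were tested with limma 3.58.1 in R 4.3.3 (trended prior variance, no covariates), with Benjamini-Hochberg adjustment over all genes and a threshold of 0.05. The steps were checked on simulated data. Exact permutation tests used scipy 1.17.1, and plots matplotlib 3.10.9. Genes and lists were chosen with earlier results of these data known. Named genes are the 10 clock genes, in each further list those past the threshold or else the 4 smallest in p, the 3 nearest to Arntl and to Dbp, and Dock3. A gene of the partner list and 1 gene near Dbp are not reported here by name. Ratios of Per1, Per3 and Cry1 to Arntl were added after the values were seen. Near-identical copies were searched with blastn (95% identity or more, over 100 bases or more that make up 50% of the shorter transcript).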

Additional observations from a re-analysis of the deposited data

How the results depend on the processing

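Of 18 other settings tried, 17 were other pseudocounts, filters, scalings and prior variances, a Gm42418 covariate, the replicate block and leaving out each muscle. A fit without Dock3 KO replicates 1 and 2 was chosen after seeing the data; the lone Dock3 KO muscle is then assumed to vary like WT. The clock gene count was 0 under all 18 settings, as did those of kinases and ligases and of glucocorticoid-responsive genes. In all 18, Arntl and Clock kept a log2 difference above 0, and Per3, Cry1 and Dbp one below 0, ranging from 0.80 to 1.43, 0.11 to 0.49, -0.75 to -0.30, -0.42 to -0.04 and -0.98 to -0.35. The smallest limma adjusted p of a clock gene was 0.0555 (Arntl, no filter). Where a value moved, the cause was not tested.

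Rescaled to the same total, which put the median log2 difference of all genes at -0.28 in place of -0.01, Per1 was -0.18, Cry2 -0.27 and Nr1d2 -0.19, and immediate early calls fell from 3 to 1. Without Gm42418 and Lars2 in the total (median -0.11) they were -0.011, -0.10 and -0.019. With log2 Gm42418 as a covariate, Per2 was 0.089, Cry2 -0.0048 and Nr1d1 0.13, 57 genes were called in place of 165, and 0 muscle outputs. With the replicate block, 0 clock genes passed, Per1 was -0.19, Cry2 -0.26 and Nr1d2 -0.10, with 127 genes called. WT replicate 4 and Dock3 KO replicate 2 have no same-numbered muscle, so these differences rest on replicates 1 and 3 alone. Same-numbered muscles deviated together at r = 0.065 (replicate 1) and 0.0066 (replicate 3) across genes. A pairing that moved few genes would hardly change r, so whether the numbers pair the muscles is not known. A prior variance without trend gave 104 genes, 1 immediate early gene and 0 muscle outputs, and a robust one 0 muscle outputs. Without a filter, 1 partner factor (Rorb) and 2 muscle outputs passed. Without Dock3 KO replicates 1 and 2, Per2 was 0.00030 and Nr1d1 0.12, with 49 genes, 0 immediate early genes and 0 muscle outputs.

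Leaving out 1 muscle at a time gave 98 to 159 genes, 0 to 1 partner factors, 0 to 2 muscle outputs, 1 to 5 immediate early genes and 0 to 2 temperature-responsive genes. Log2 differences then ranged from -0.21 to 0.52 for Per1, -0.15 to 0.11 for Cry2, -0.22 to 0.10 for Nr1d1 and -0.072 to 0.31 for Nr1d2.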
